A study of Mus musculus with 10 samples.

Results

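The 2 strongly activated states of a macrophage series were compared directly: bone marrow derived macrophages labelled Tlr4 -/- (KO) and pre-treated with Poly(I:C), and macrophages labelled wild type (WT) kept in a control medium. All cells were from C57BL/6 mice, and macrophages of this kind are grown from marrow cells in culture. The comparison took in 4 of the 10 libraries, KO Poly(I:C) replicates 1 and 2 and WT control medium replicates 1 and 2, chosen by their labels alone. The control medium held 5% fetal bovine serum (FBS) with 2% bovine serum albumin (BSA), and WT control cells spent 6 h in it. For the Poly(I:C) cells the labels give neither a duration nor the serum and albumin in the medium. Genotype label and stimulus differ together between these groups, so their parts in any difference cannot be told apart. Untreated cells of both labels (2 libraries each) were used to mark genes that differed between the labels without stimulus, and KO cells in control medium (2 libraries) are quoted for their levels. None of the 10 libraries was of WT cells given Poly(I:C). Nothing in the labels says that the libraries of a group came from separate mice or cultures, and the p-values thus reflect library-to-library spread that may be technical.

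TLR4 is the surface receptor for bacterial lipopolysaccharide, with CD14 and MD-2 (Ly96) as partners. It signals through the adaptor MyD88 to NF-kB and through TRIF (Ticam1) and TRAM (Ticam2) to interferon regulatory factors. Poly(I:C) is a synthetic double-stranded RNA that is sensed without TLR4, by TLR3, which uses TRIF alone, and by the cytosolic sensors MDA5 (Ifih1) and RIG-I (Ddx58). Both routes end in inflammatory cytokines and in interferon beta, which acts back on the cells through JAK and STAT proteins and induces the interferon-stimulated genes. Macrophages also reset their sterol, fatty acid and glucose metabolism on activation, and interferon is known to lower sterol synthesis.

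Expression is given as CPM, the deposited value per 1000000 of the library's normalized total. A log2 difference is KO Poly(I:C) minus WT control on the log2(CPM + 0.1) scale, with its 95% interval, and a gene was called at an adjusted p under 0.05. Deposited totals, in units of 1000000, were 42 and 41.1 (WT control) and 47.5 and 51.7 (KO Poly(I:C)), against 25.2 to 26.7 in the other 6 libraries. Replicates correlated at 0.992 to 0.994 across genes. A single principal component, with 83.4% of the variance, set both activated groups (71.7 to 105.5) apart from the other libraries (-69.2 to -47.3), which included KO cells in control medium. Tlr4 itself was present in every library: 60.1 and 69.1 CPM in untreated WT, 44.4 and 44.9 in untreated KO, 32.3 and 39.0 in WT control, 30.8 and 34.6 in KO control, and 47.9 and 63.4 in KO Poly(I:C). These are values of the whole gene and do not show whether its protein could be made, so they do not check the genotype label. Tlr4 was thus higher in KO Poly(I:C) than in WT control (log2 difference 0.63, 0.32 to 0.95, adjusted p = 0.0108), a call lost without KO Poly(I:C) replicate 2 (0.43) or without WT control replicate 1 (0.50).

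Macrophage genes were high in both groups. Adgre1, which encodes F4/80, had 4350 and 4110 CPM in WT control and 3900 and 4360 in KO Poly(I:C), so the groups overlapped. Of 26 macrophage identity genes tested, 8 were higher (30.8%), 2 were lower (7.69%) and 16 did not pass, against 11.9% of all genes tested in either direction. Without KO Poly(I:C) replicate 2 or WT control replicate 1, 4 were higher, and with totals alone 5 were higher and 5 lower. The summed level of 15 neutrophil genes was 816 to 969 CPM in WT control and 976 to 981 in KO Poly(I:C). Most of it came from Csf3r (413 and 479 against 596 and 584), Mmp8 (176 and 186 against 157 and 144) and Mmp9 (138 and 182 against 122 and 137). S100a8 was at 41.7 and 46.8 against 43.0 and 42.4, and Ly6g at 0.028 to 0.22 CPM in these 4 libraries. That of 8 B cell genes was 34.9 to 39.7 and 51.5 to 55.1, nearly all from Ighm and Cd79b. The 14 T and NK cell genes summed to 0.615 to 1.94 and 1.03 to 1.13, with Cd3e, Cd3g, Cd8a, Trbc2 and Ncr1 at 0 in all 10 libraries. The 10 mast cell and basophil genes summed to 31.8 to 36.9 and 51.8 to 56, of which Hdc was 30.6 and 35.2 against 54.3 and 50.3, with Cpa3, Mcpt8 and Fcer1a at 0. The 11 dendritic cell genes summed to 653 to 874 and 872 to 1040, most of it Bst2, which is itself induced by interferon. The 16 stromal and endothelial genes summed to 76 to 106 and 110 to 120, and the 10 erythroid and platelet genes to 312 to 399 and 387 to 419. In these bulk samples fewer cells of a type and less RNA per cell cannot be told apart, and the part of these sums in the results was not tested.

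Across 13171 genes, 1562 were higher in KO Poly(I:C) (11.9%) and 1566 lower (11.9%), while 10043 did not pass the test. In all, 3128 were called (23.7%). The counts of each list below are to be read beside the share of 11.9% in either direction. Most of the called differences were of 1 log2 or less. Differences over 1 log2 were called for 261 genes upward (1.98%) and 212 downward (1.61%). For 10172 genes (77.2%) the 95% interval lay within -1 to 1, which bounds the difference and does not show equality. Without WT control replicate 1 the count of calls fell to 1241 and without KO Poly(I:C) replicate 2 to 1501. The split depended on scaling: scaling by column totals alone moved the median of all genes from -0.026 to -0.244 and gave 764 higher and 4237 lower calls, and the deposited rlog table gave 1952 and 1249. All 3128 calls had the same sign in the rlog table, and 2795 of them were also called there.

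Against their own untreated cells, 65.8% of genes were called in WT control and 72.1% in KO Poly(I:C). These comparisons share libraries with the direct one, so their values are set side by side below and no overlap is counted. The test of whether both responses differed, which takes the untreated difference between the labels off the direct one, called 1281 genes (9.73%), 744 with a higher (5.65%) and 537 with a lower (4.08%) response in KO Poly(I:C). This count was 428 in all without WT control replicate 1 and 559 without KO Poly(I:C) replicate 2.

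**Figure D1:**
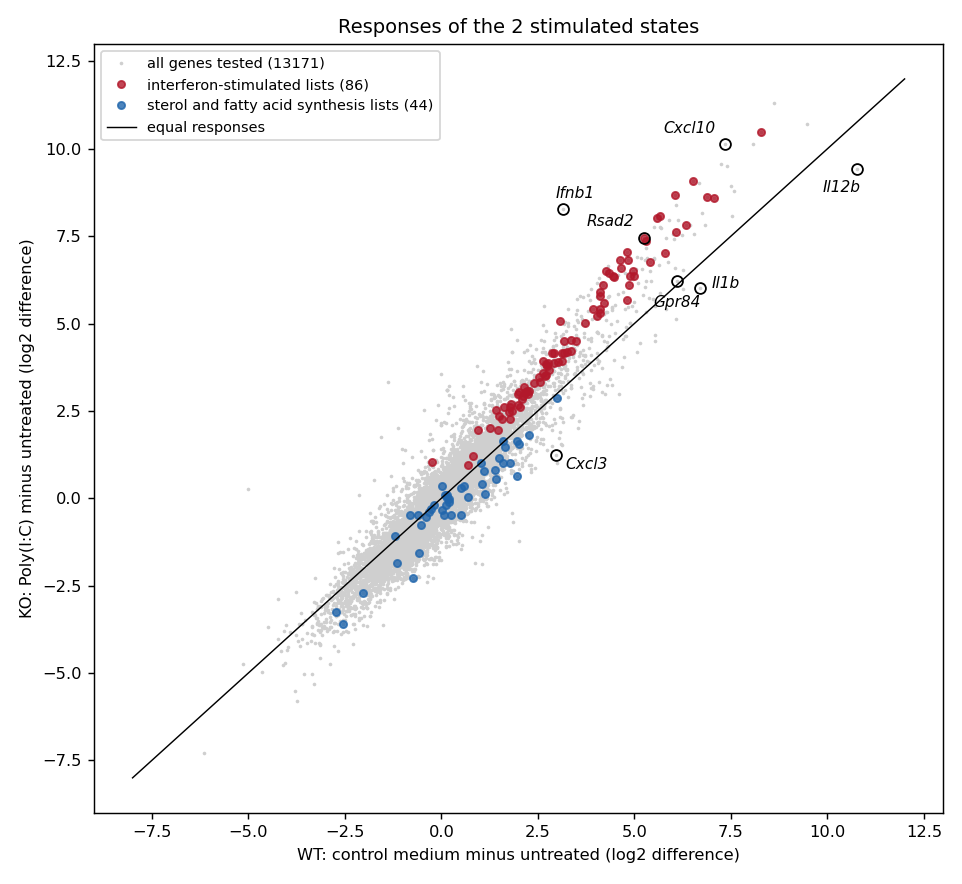
Response of WT cells to control medium (x axis) against response of KO cells to Poly(I:C) (y axis), each as the log2 difference in CPM + 0.1 from untreated cells of the same label. Points are genes and the line marks equal responses: nearly all genes of the interferon-stimulated lists (red) lie above it, most sterol and fatty acid synthesis genes (blue) on or below it, and Il1b, Il12b and Cxcl3 below it. Ifnb1 is listed at 0 in untreated KO cells, so its height depends on the added 0.1. The place of Il12b, at 0.0313 to 0.227 CPM in untreated cells, depends on it too.

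Interferon beta showed a wide gap between the states. Ifnb1 was at 0.923 and 1.46 CPM in WT control and at 33.2 and 29.3 CPM in KO Poly(I:C), with 0 to 0.0993 in the untreated libraries and 0.066 and 0 in KO control. Both Poly(I:C) libraries were far above both control libraries (log2 difference 4.63, 3.76 to 5.50, adjusted p = 0.00015). The response test called a difference too (5.13, adjusted p = 0.00148), but its size depends on the added 0.1, with untreated libraries at or near 0. Among the interferon alpha genes, Ifna2 was at 0 and 0.0299 CPM in WT control and 0.617 and 1.10 in KO Poly(I:C), and Ifna5 at 0 and 0.0299 against 0.529 and 0.467. These genes are near-identical copies, so reads may be shared between them, and no fold is given against libraries at 0.

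The start of the Ifnb1 gene is shown with those of Cxcl10 and Ifit1, interferon-inducible genes that were higher in KO Poly(I:C), of Rsad2 from the same list as Ifit1, and of Cxcl3, the chemokine with the largest negative difference. Sequences are the gene's strand, 5′ to 3′, from RefSeq on GRCm38.p6. The stretches are chr4:88522858-88522930 (minus strand, bases -136 to -64 from the RefSeq start of Ifnb1), chr5:92348963-92349122 (minus, -233 to -74, Cxcl10), chr19:34640765-34640833 (plus, -124 to -56, Ifit1), chr12:26456543-26456592 (minus, -140 to -91, Rsad2) and chr5:90786008-90786058 (plus, -93 to -43, Cxcl3). Capitals mark matches, on either strand, to either of 2 motifs. The interferon motif, the core of the interferon-stimulated response element, is GAAA and GAAA with any 2 bases between them. The NF-kB form is GGGA and CC with any 4 bases between them.
Ifnb1: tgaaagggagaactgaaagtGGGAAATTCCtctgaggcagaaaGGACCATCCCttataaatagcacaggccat
Cxcl10: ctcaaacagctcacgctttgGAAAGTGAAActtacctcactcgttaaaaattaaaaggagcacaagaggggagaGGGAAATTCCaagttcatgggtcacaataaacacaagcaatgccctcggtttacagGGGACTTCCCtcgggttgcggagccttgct
Ifit1: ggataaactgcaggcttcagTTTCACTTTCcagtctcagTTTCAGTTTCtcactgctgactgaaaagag
Rsad2: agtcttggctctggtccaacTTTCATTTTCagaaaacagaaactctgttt
Cxcl3: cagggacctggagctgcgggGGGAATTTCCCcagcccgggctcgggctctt
In these stretches Ifit1 and Rsad2 have matches to the interferon motif alone, Ifnb1 and Cxcl3 to the NF-kB form alone, and Cxcl10 to both. A match is a description and not a site of binding, and the lack of a match does not show that a site is absent.

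Over all 32851 RefSeq windows of 300 bases (250 before to 50 after a start), 3.44% held the interferon motif, and over windows of the genes tested 3.42%. The share was 12.4% (26 of 209 windows) for genes called higher by over 1 log2 and 0.495% (1 of 202) for genes called lower by over 1 log2. The NF-kB form was present in 26.4% of windows of the genes tested, in 28.2% of windows of the genes higher by over 1 log2 and in 30.2% of the genes lower by over 1 log2. The share with the interferon motif was thus larger among genes higher in KO Poly(I:C) than in WT control than among genes lower there. Shares with the NF-kB form lay close together. Windows of 1 gene can overlap and share a match, and no test was run on these shares.

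Interferon-stimulated antiviral genes were higher in KO Poly(I:C) nearly throughout. Of 59 tested, 45 rose above WT control (76.3%, against 11.9% of all genes), 0 were lower and 14 did not pass. The median log2 difference was 0.63 against -0.026 for all genes. Ifit1, whose protein binds viral RNA ends, had 1160 and 1610 CPM in WT control and 3570 and 4180 in KO Poly(I:C) (1.5, 1.08 to 1.92, adjusted p = 0.000806). Rsad2, which encodes viperin, had 5140 and 7210 against 15600 and 17600 (1.45, adjusted p = 0.00149). Neither gene's groups overlapped. The same held for Mx2, an antiviral GTPase, at 114 and 164 against 440 and 423 (1.66, adjusted p = 0.00113). Cmpk2, a mitochondrial nucleotide kinase, was at 1690 and 2330 against 5470 and 5550, and Oasl1, an OAS-like protein, at 764 and 967 against 2370 and 2470. Ifit1bl1 had the largest difference in the list (196 and 264 against 766 and 881, 1.85).

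The list also held smaller differences. Isg15, the ubiquitin-like modifier, was at 1320 and 1570 CPM in WT control and 2370 and 2330 in KO Poly(I:C) (0.71, adjusted p = 0.0208), but this call was lost without either KO Poly(I:C) library (0.70 and 0.72) or without WT control replicate 1 (0.58). Bst2, Ifitm3, Lgals3bp and Adar were among those that did not pass. Responses differed for 49 of the 59 genes, all stronger in KO Poly(I:C). In untreated cells the order was the opposite: all 59 genes were lower in KO than in WT by their estimate, with a median of -0.41, although only 2 were called. Without WT control replicate 1 the count of 45 fell to 20, without KO Poly(I:C) replicate 2 to 21.

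Interferon-inducible GTPases and Ifi200 genes encode proteins that coat and break pathogen-containing vacuoles (Gbp, Irgm and Iigp genes) or sense DNA (Ifi200 genes). Of 27 tested, 23 were higher in KO Poly(I:C) (85.2%, against 11.9% of all genes), 0 lower, and the median was 0.91. Iigp1 had 189 and 260 CPM in WT control and 652 and 754 in KO Poly(I:C) (1.66, adjusted p = 0.000729). Gbp4 had 90.7 and 134 against 291 and 358 (1.55, adjusted p = 0.000611), and Gbp3 630 and 736 against 1090 and 1170 (0.73, adjusted p = 0.000951). Both groups of each gene were apart. Gbp5 (1.05), the DNA sensor Aim2 (1.12) and Irgm1 (0.91) were also called, and Gvin1, Gbp7, Gbp10 and Ifi213 were not. Gbp and Tgtp genes have close copies in which reads may be misassigned. The count was 13 without WT control replicate 1 and 15 without KO Poly(I:C) replicate 2. Of the RefSeq windows of these genes 77.3% (17 of 22) held the interferon motif, and 37.5% (24 of 64) of those of the antiviral list.

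**Figure D2:**
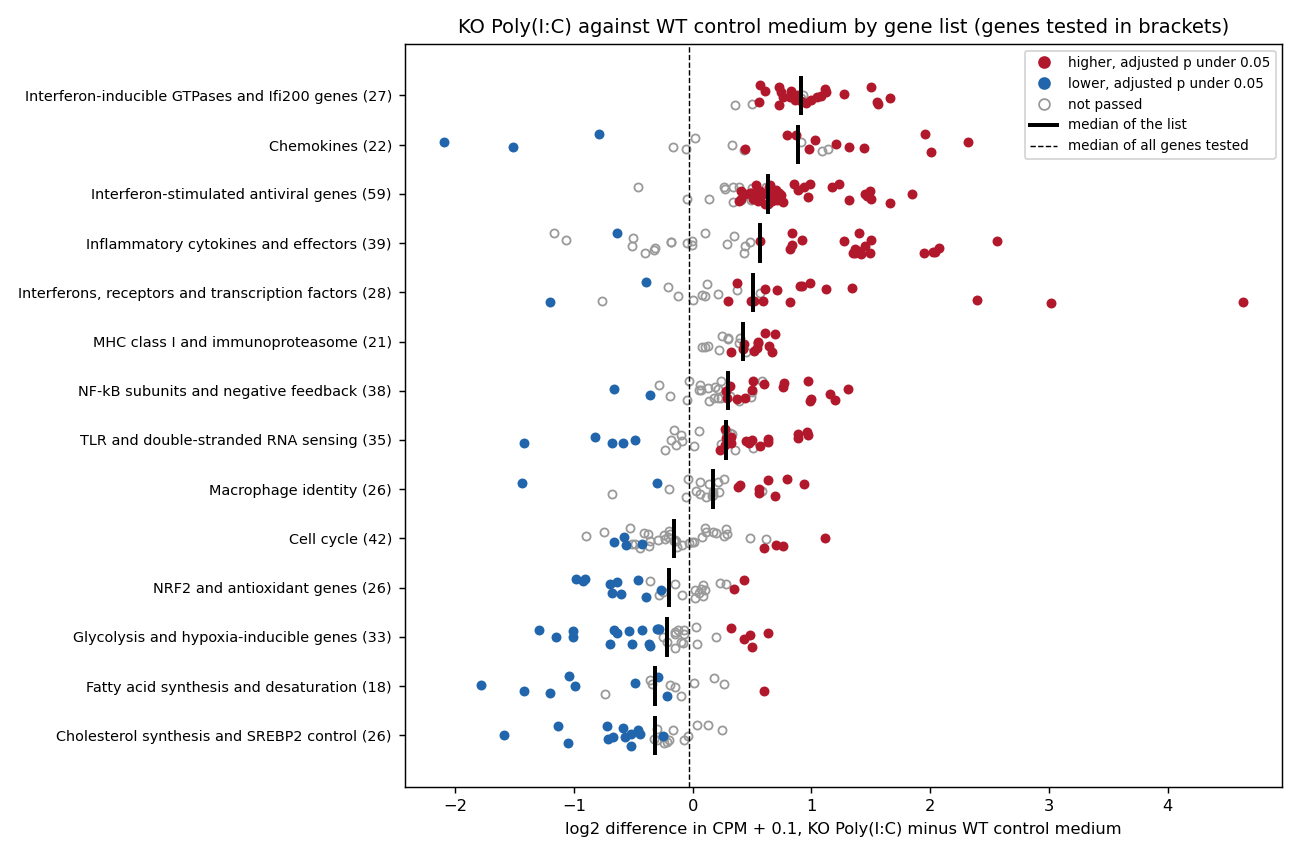
Log2 difference in CPM + 0.1, KO Poly(I:C) minus WT control, for the members of 14 gene lists; filled points passed the test, open points did not, the heavy bar is the list's median and the dashed line the median of all genes tested (-0.026). The interferon lists lie to the right, with Ifnb1 at 4.63, and the cholesterol and fatty acid synthesis lists to the left, with medians of -0.32 and -0.31.

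Of 28 interferons, receptors and transcription factors tested, 16 were higher, 2 lower and 10 did not pass, with a median of 0.50; without WT control replicate 1, 10 were higher. With all libraries kept, 57.1% were higher and 7.14% lower, against 11.9% of all genes in either direction. Irf1, an interferon-induced activator, was at 175 and 237 CPM in WT control and 439 and 445 in KO Poly(I:C) (1.12, adjusted p = 0.000675). Stat3 was at 368 and 413 against 600 and 675 (0.71, adjusted p = 0.00054). Among inhibitors of the pathway, Socs1, which blocks JAK kinases, was at 10.2 and 13.1 against 33.5 and 26.1 (1.34, adjusted p = 0.00145), and Usp18, which holds back the interferon receptor, at 551 and 659 against 1090 and 1150 (0.90, adjusted p = 0.00527; 0.77 and not passed without WT control replicate 1). Receptor genes moved little: Ifnar1 (-0.12) and Ifnar2 (0.10) did not pass, and Ifngr1 was lower (-0.39). Irf7 (0.57, adjusted p = 0.0688) did not pass, although the response test called it (adjusted p = 0.0142).

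Of 35 genes of TLR and double-stranded RNA sensing, 16 were higher in KO Poly(I:C) (45.7%), 5 were lower (14.3%) and 14 did not pass. Over all genes the shares were 11.9% in either direction. With totals alone 8 were higher and 10 lower, so no direction is given for the list, and without WT control replicate 1 or KO Poly(I:C) replicate 2, 5 were higher. Tlr3 was at 88.8 and 106 CPM in WT control and 166 and 195 in KO Poly(I:C) (0.89, 0.64 to 1.15, adjusted p = 0.000866). Ifih1, the gene of MDA5, was at 607 and 736 against 1210 and 1410 (0.97, adjusted p = 0.00239). Ddx58 was at 708 and 793 against 984 and 1060 (0.45, adjusted p = 0.0273), a call lost without either KO Poly(I:C) library (0.50 and 0.39), without WT control replicate 1 (0.37) and with totals alone (0.22). In none of these 3 genes did the groups overlap, and untreated cells held 10.5 to 11.3 (Tlr3, group means) and 54.5 to 66.1 CPM (Ifih1). Cd14 was lower, at 1080 and 1020 against 697 and 619 (-0.68, adjusted p = 0.000729), and so was the adaptor gene Ticam2, at 97.1 and 95.1 against 54.8 and 53.6 (-0.82, adjusted p = 0.000301). Mavs, the adaptor of the cytosolic sensors, was also lower (-0.59), and Ly96 did not pass (0.33).

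**Figure D3:**
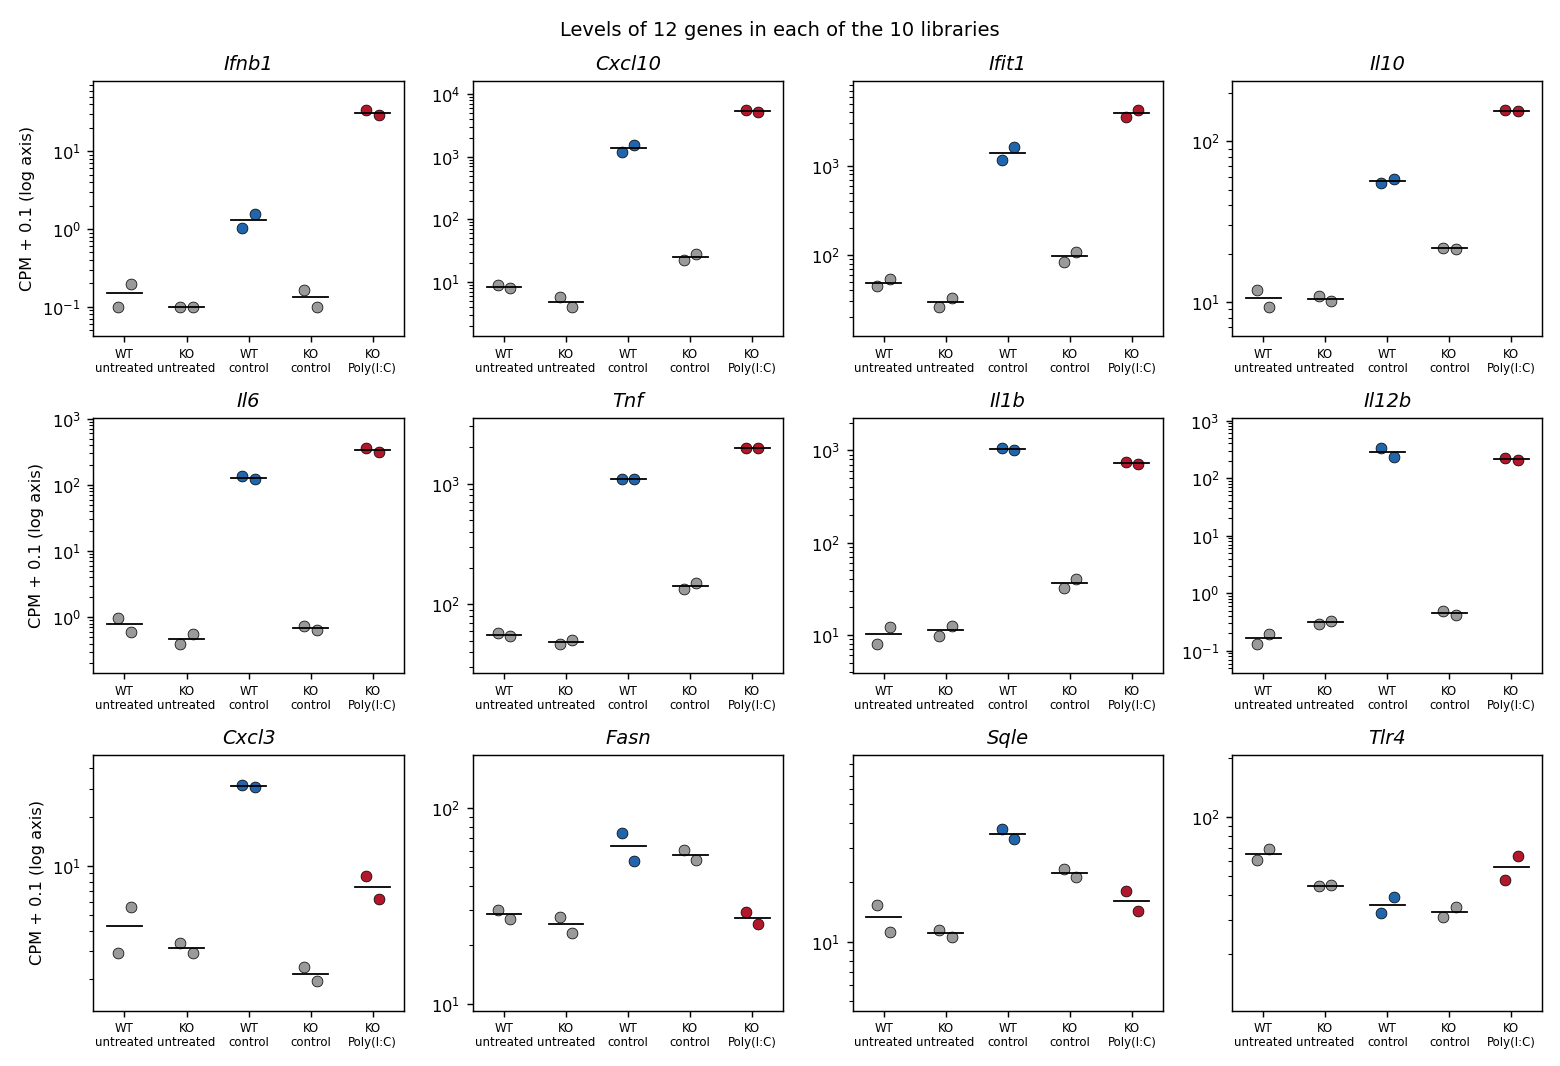
CPM + 0.1 of 12 genes on log axes in each library; points are libraries, bars are group means, WT control is blue and KO Poly(I:C) red. Ifnb1, Cxcl10, Ifit1, Il10, Il6 and Tnf are higher in both KO Poly(I:C) libraries than in both WT control libraries, points of Cxcl3, Fasn and Sqle lie below, as do those of Il1b and Il12b, which did not pass the test, and Tlr4 is present in all 10.

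Of 39 inflammatory cytokines and effectors tested, 20 were higher in KO Poly(I:C), 1 was lower and 18 did not pass, with a median of 0.57; the higher count stayed at 15 to 18 without any single library of these groups. Shares with all libraries kept were 51.3% higher and 2.56% lower, against 11.9% of all genes in either direction. Il6 was at 134 and 124 CPM in WT control and 365 and 315 in KO Poly(I:C) (1.39, 0.87 to 1.92, adjusted p = 0.00314). Il10, the anti-inflammatory cytokine, was at 55 and 57.9 against 155 and 153 (1.45, 1.2 to 1.69, adjusted p = 8.71e-05). Tnf was at 1100 and 1100 against 1990 and 1970 (0.84, 0.67 to 1.02, adjusted p = 0.000211). For these 3 genes the replicates of a group lay close together and the groups far apart. Il27, a cytokine that restrains T cells, was at 49.7 and 50.4 against 196 and 191 (1.95, adjusted p = 0.000278). Tnfsf15, a TNF family ligand, was at 24.7 and 34.0 against 102 and 140 (2.04, adjusted p = 0.000449), and Il15, which sustains NK cells, at 42.5 and 60.3 against 125 and 143 (1.40, adjusted p = 0.000557). The inducible nitric oxide synthase gene, Nos2, was higher (831 and 1080 against 1590 and 2030, 0.92), a call lost without KO Poly(I:C) replicate 2 (0.75) or WT control replicate 1 (0.74).

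Estimates for Il1b, Il1a and Il12b were negative and did not pass. Il1b was at 1070 and 999 CPM in WT control and at 754 and 703 in KO Poly(I:C), both control libraries above both others. Its difference of -0.50 (-0.93 to -0.08) did not pass in the fit over all groups (adjusted p = 0.0841), and it passed when only these groups were fitted, with the replicate block and with totals alone. Il12b, the shared subunit of IL-12 and IL-23, was at 338 and 235 against 221 and 205 (-0.40, -0.92 to 0.11, adjusted p = 0.24), and Il1a at 100 and 92.3 against 90.1 and 79.6 (-0.18, -0.83 to 0.46). Relative to untreated cells Il1b was higher by 6.71 log2 in WT control and 6.03 in KO Poly(I:C), and Il12b by 10.77 and 9.42. For Il12b the response test called the difference (-1.35, adjusted p = 0.0316). Untreated Il12b was at 0.0313 and 0.0993 CPM in WT and 0.196 and 0.227 in KO. The responses of Il12b and this call thus depend on the added 0.1. Gpr84, a fatty acid receptor, was at 520 and 474 against 480 and 442, Lcn2, which binds bacterial iron carriers, at 1010 and 850 against 836 and 797, and Ptges, of prostaglandin E2 synthesis, at 338 and 248 against 240 and 229. In each of these 3 genes the interval lay within 1 log2; the groups overlapped for Gpr84 and lay just apart for the other two. Ch25h, which makes an antiviral oxysterol, was at 59.2 and 63.7 against 175 and 157 and did not pass (1.43, adjusted p = 0.0555). Acod1, which makes itaconate, was higher with Poly(I:C) (7670 and 8210 against 12200 and 12300, 0.63, adjusted p = 0.000951). Ptgs2 (860 and 695 against 1080 and 1170, 0.54, adjusted p = 0.0341) lost its call without any single library of the 4, with estimates of 0.39 to 0.70.

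Of 22 chemokines tested, 11 were higher in KO Poly(I:C), 3 were lower and 8 did not pass. Ligands of CXCR3, which draws T and NK cells, were among the higher genes: Cxcl10 at 1210 and 1560 CPM in WT control against 5500 and 5230 in KO Poly(I:C) (1.96, 1.58 to 2.35, adjusted p = 0.000192), Cxcl9 at 63.4 and 105 against 270 and 400 (2.01), and Cxcl11 at 11.6 and 19.7 against 77.6 and 74.7 (2.32). Ccl12 (365 and 433 against 1040 and 940, 1.32, adjusted p = 0.000121), Ccl7 (1.44), Ccl4 (1.21) and Ccl2 (0.98), which draw monocytes and other leukocytes, were higher as well. Ccl5 was higher (1210 and 1530 against 2870 and 2720, 1.03), a call lost without either KO Poly(I:C) library (0.99 and 1.07) or without WT control replicate 1 (0.86). The 3 lower genes are ligands of CXCR2, which draws neutrophils, and of their calls only that of Cxcl3 held without each single library. Cxcl3 was at 31.6 and 30.8 against 8.52 and 6.16 (-2.09, -2.71 to -1.47, adjusted p = 0.00108), Cxcl1 at 22.6 and 16.0 against 11.6 and 10.3 (-0.79) and Cxcl5 at 1.34 and 0.986 against 0.382 and 0.302 (-1.51). A further CXCR2 ligand, Cxcl2, did not pass and its groups overlapped (212 and 180 against 188 and 160). The receptors were looked up after these values were seen, and no list by receptor was tested. Cxcl5 lost its call without any single library (-1.71 to -1.3), and Cxcl1 without either KO Poly(I:C) library (-0.88 and -0.70) or WT control replicate 1 (-0.54).

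Of 38 NF-kB subunits and feedback genes, 16 were higher in KO Poly(I:C) (42.1%), 2 were lower (5.26%) and 20 did not pass. All genes had 11.9% in either direction, and the median of the list was 0.30. With totals alone 10 were higher and 6 lower, and without WT control replicate 1 or KO Poly(I:C) replicate 2, 10 were higher. Tnfaip3, the gene of the deubiquitinase A20, was at 650 and 678 CPM in WT control and 1270 and 1340 in KO Poly(I:C) (0.97, adjusted p = 0.000472). Zfp36, which destabilises cytokine mRNAs, was at 483 and 587 against 1260 and 1120 (1.16, adjusted p = 0.00023), and Dusp1, a phosphatase of MAP kinases, at 197 and 223 against 424 and 412 (1.00, adjusted p = 0.000195). The groups of all 3 were apart. The NF-kB subunit gene Rel (0.60) was called, and Nfkb2, Relb, Birc3 and Tnip1 were not. Dusp4, another MAP kinase phosphatase, was lower (-0.66). Among 33 immediate early factors 6 were higher (18.2%) and 3 lower (9.09%), and with totals alone 4 and 6, so no direction is given. Mafk was higher (37.0 and 46.8 against 84.8 and 87.3, 1.04) and Klf10 lower (34.4 and 32.7 against 17.5 and 17.4, -0.94). Estimates for Jun, Fosl2 and Ets2 were under 0.1 log2 in size and did not pass, which does not show equality.

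Of 21 MHC class I and immunoproteasome genes, 11 were higher and 0 lower, but this count was 2 without WT control replicate 1. The share higher with all libraries kept was 52.4%, against 11.9% of all genes. Psmb9, an immunoproteasome subunit, was at 143 and 170 CPM against 246 and 240 (0.64, adjusted p = 0.00265), while H2-K1, H2-D1 and B2m did not pass. Of 23 class II and co-stimulatory genes, 6 were higher and 0 lower (3 higher without KO Poly(I:C) replicate 2 or WT control replicate 1, and 5 higher and 3 lower with totals alone). Here the share higher with all libraries kept was 26.1%. Cd40 was at 283 and 335 against 609 and 659 (1.04, adjusted p = 0.000453), Cd86 at 112 and 146 against 271 and 301 (1.16, adjusted p = 0.000398) and Cd83 at 21.9 and 33.5 against 71.2 and 92.2 (1.58). These 3 co-stimulatory genes were apart between the groups, whereas the class II genes H2-Ab1, H2-Eb1 and Cd74 did not pass. Cd86 and Cd83 also leaned higher in untreated KO cells (0.42 and 0.51, unadjusted p = 0.00679 and 0.0464). Of 33 inflammasome and cell death genes 13 were higher and 0 lower (5 higher without WT control replicate 1 or KO Poly(I:C) replicate 2, and 9 higher and 3 lower with totals alone). For this list the share higher with all libraries kept was 39.4%. Casp4, the sensor of cytosolic lipopolysaccharide, was at 218 and 246 against 362 and 378 (0.67, adjusted p = 0.00122). Nlrp3, Pycard and Bcl2a1a did not pass.

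Of 26 cholesterol synthesis genes tested, 13 were lower in KO Poly(I:C), 0 were higher and 13 did not pass, with a median of -0.32 (20 lower with totals alone, 5 without WT control replicate 1 or without KO Poly(I:C) replicate 2). Sqle, the squalene epoxidase, was at 37.2 and 33.2 CPM in WT control and 17.9 and 14.2 in KO Poly(I:C) (-1.13, -1.5 to -0.77, adjusted p = 0.00149), and Mvd, of the mevalonate branch, at 14.6 and 13.7 against 7.93 and 5.80 (-1.05, adjusted p = 0.00236). Both were apart. Lss, the lanosterol synthase, was lower as well (18.8 and 15.1 against 11 and 9.40, -0.72), as was Stard4, a sterol carrier (36.2 and 30.8 against 21.8 and 20, -0.67). Hmgcs1 (-0.17), Idi1 (-0.30), Insig1 (-0.04) and the regulator Srebf2 (-0.20) did not pass. Relative to untreated cells Sqle was higher in both states, by 1.42 log2 in WT control and by 0.54 in KO Poly(I:C). For 8 of the 26 genes the response test called a lower response in KO Poly(I:C), and for 0 a higher one. KO cells in control medium held 22.3 CPM of Sqle as a mean. The sterol regulatory element searched, ATCAC and CCAC with any base between them, was in 0 of 25 RefSeq windows of this list and in 0.151% of windows of the genes tested, which says only that these letters are not in those windows.

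Of 18 fatty acid synthesis genes tested, 8 were lower, 1, Mcat, was higher and 9 did not pass, with a median of -0.31; 4 to 6 were lower without any single library of these groups. Shares with all libraries kept were 44.4% lower and 5.56% higher, against 11.9% of all genes in either direction. Scd2, a desaturase, was at 47.3 and 44.6 CPM in WT control and 14.1 and 12.6 in KO Poly(I:C) (-1.78, -2.19 to -1.37, adjusted p = 0.000334). Fasn, the fatty acid synthase, was at 74.2 and 53.3 against 29.3 and 25.6 (-1.2, -1.55 to -0.85, adjusted p = 0.000973). For both genes the groups were apart, but their course from untreated cells was not the same. Fasn was at 28.6 and 25.4 CPM in untreated WT and KO cells (means), so that KO Poly(I:C) was near the untreated level and WT control above it, as was KO control (57.7, mean). Scd2 was at 78.3 and 66.0 in untreated cells and 119 in KO control, and it was below the untreated level in both activated states. Acaca, Acss2 and Elovl5 did not pass. Among 32 genes of lipid uptake, storage and release, 9 were lower and 2 higher; the lower count was 3 without WT control replicate 1 and at most 6 without any other library of these groups. For these lipid genes the shares with all libraries kept were 28.1% lower and 6.25% higher. Lpin1, a phosphatidate phosphatase, was at 1.06 and 1.46 against 0.353 and 0.302 (-1.66, adjusted p = 0.000729), and Acsl1, an acyl-CoA synthetase, at 300 and 346 against 430 and 463 (0.47, adjusted p = 0.00345). Estimates for the scavenger receptors Cd36, Msr1 and Marco and the lipase Lpl were under 0.1 log2 in size and did not pass, which does not show equality. Of 29 fatty acid oxidation genes 1 was higher and 3 lower, of 18 LXR targets 3 and 1, shares near or under those of all genes in either direction; the LXR count was 0 higher without WT control replicate 1 or KO Poly(I:C) replicate 2.

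**Figure D4:**
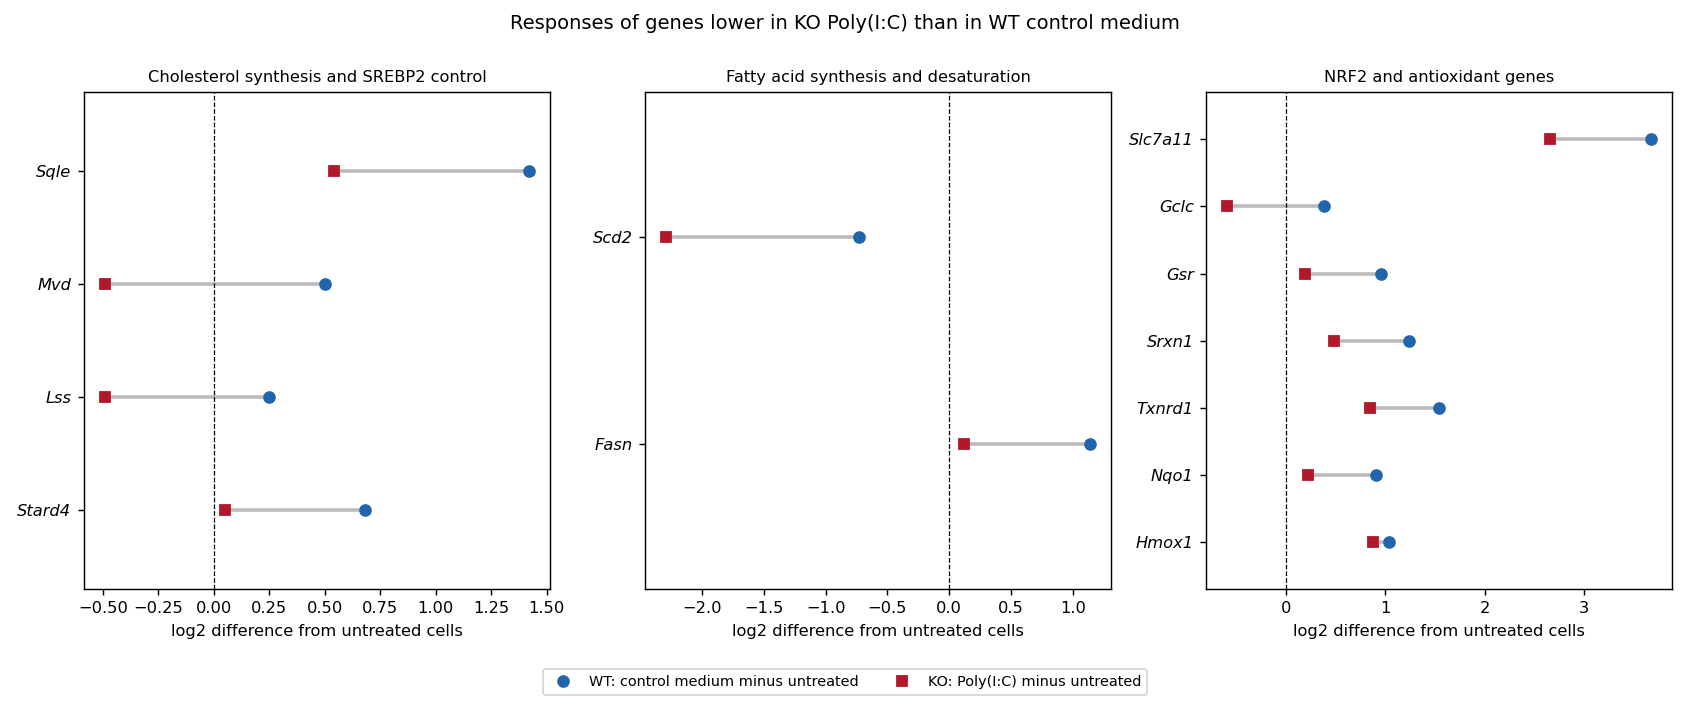
Log2 difference from untreated cells of the same label for WT control medium (circles) and KO Poly(I:C) (squares), for the genes of 3 lists that the text names as lower in KO Poly(I:C) than in WT control. Sqle is above untreated in both states and less so with Poly(I:C), Scd2 is below untreated in both, and Gclc is above untreated in WT control and below it in KO Poly(I:C).

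NRF2 is the transcription factor that induces glutathione and thioredoxin genes under oxidative or electrophilic stress. Of 26 NRF2 and antioxidant genes tested, 10 were lower in KO Poly(I:C) (38.5%), 2 were higher (7.69%) and 14 did not pass. Over all genes the shares were 11.9% in either direction. Without any single library of these groups 9 to 10 were lower and 1 higher. Slc7a11, the cystine importer, was at 468 and 368 CPM in WT control and 203 and 218 in KO Poly(I:C) (-0.98, adjusted p = 0.00376). Gclc, the rate-limiting enzyme of glutathione synthesis, was at 38.2 and 34.0 against 19.2 and 18.7 (-0.92, -1.14 to -0.71, adjusted p = 0.000366), and Gsr, the glutathione reductase, at 344 and 275 against 208 and 172 (-0.70, adjusted p = 0.004). Groups were apart in all 3. Srxn1 (-0.68), Txnrd1 (-0.64), Nqo1 (-0.60) and Hmox1 (-0.46) were called too, whereas Nfe2l2, the gene of NRF2 itself, was not (0.10), and Txn1, thioredoxin, was higher (0.43). The response test called 8 genes lower and 0 higher. Of RefSeq windows of this list 30% held TGACNNNGC, the core of the antioxidant response element, on either strand, against 14.4% of windows of the genes tested.

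Of 33 glycolysis and hypoxia-inducible genes, 15 were lower, 5 higher and 13 did not pass, with a median of -0.22 (24 lower and 2 higher with totals alone, and 11 to 13 lower and 2 to 3 higher without any single library of these groups). With all libraries kept, 45.5% were lower and 15.2% higher, against 11.9% of all genes in either direction. Egln3, a prolyl hydroxylase that marks HIF for breakdown, was at 49.6 and 56.3 CPM in WT control and 23.2 and 19.9 in KO Poly(I:C) (-1.29, adjusted p = 0.000675). Ankrd37 was at 15.3 and 13.6 against 7.55 and 6.74 (-1.01, adjusted p = 0.00104), and Mxi1, an antagonist of MYC, at 17.2 and 18.5 against 9.02 and 8.69 (-1.01, adjusted p = 0.000285). These groups were apart. Glycolytic enzymes differed by less: Tpi1 (-0.36) and Pfkl (-0.51) were lower, Hk3 (0.63) higher, and Gapdh, Pkm, Hk2, Slc2a1 and Hif1a did not pass. Among 30 genes of ER stress and the integrated stress response 7 were lower and 3 higher (21 and 3 with totals alone). Ddit4, an inhibitor of mTORC1, was at 7.16 and 7.26 against 2.56 and 2.97 (-1.36, adjusted p = 0.00416), while Ppp1r15a, which reverses eIF2alpha phosphorylation, was at 78.2 and 90.2 against 200 and 193 (1.23, adjusted p = 0.000192). Atf4, Ddit3 and Hspa5 did not pass.

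Lineage and growth genes differed singly. Cebpa, a transcription factor of myeloid cells, was at 8.97 and 7.98 CPM in WT control and 3.29 and 2.83 in KO Poly(I:C) (-1.44, -1.73 to -1.15, adjusted p = 0.000203), from 34.8 and 39.1 in untreated WT and KO cells (means). It was thus below untreated in both states and lower with Poly(I:C). C1qa, a complement subunit, was at 271 and 289 against 490 and 478 (0.79, adjusted p = 0.00107), and it leaned higher in untreated KO cells as well (0.35, unadjusted p = 0.00752). Fcgr3 was at 195 and 223 against 337 and 334 (0.69, adjusted p = 0.000568). Of 42 cell cycle genes 4 were higher and 4 lower (9.52% each), under the 11.9% of all genes in either direction. Ccne1 (9.03 and 8.15 against 18.2 and 19.2, 1.11) and Pcna (245 and 270 against 404 and 435, 0.70) were among the higher genes, and Mki67, Top2a and Ccnb1 did not pass. Of 28 ribosomal protein genes 1 was higher (3.57%) and 0 lower. Counts of higher and lower calls were 1 and 3 of 30 for the TCA cycle and itaconate, 4 and 2 of 22 for arginine, tryptophan and one-carbon enzymes, 2 and 2 of 20 for eicosanoid genes, 3 and 1 of 20 for alternative activation and 3 and 2 of 27 for proteases and remodelling. Lower calls were 0 for the TCA cycle and 1 for the cell cycle without WT control replicate 1 or KO Poly(I:C) replicate 2, and with totals alone 16 and 9.

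Several of the largest differences lay outside the lists. Fam78a was at 5.14 and 5.29 CPM in WT control and 1.32 and 1.73 in KO Poly(I:C) (-1.72, adjusted p = 0.000128), from a mean of 20.2 in untreated cells of either label. Kif21b, a kinesin, was at 28.5 and 24.6 against 8.49 and 10.7 (-1.47, adjusted p = 0.000108). Both were below untreated in both states and lowest with Poly(I:C). Plagl1, a zinc finger factor, was at 2.66 and 4.33 against 13.4 and 13.7 (1.97, adjusted p = 0.00119), and Dnase1l3, an extracellular DNase, at 1.01 and 1.70 against 5.55 and 6.43 (2.11, adjusted p = 0.00168). Il19, a cytokine of the IL-10 family and a list member, was at 2.52 and 1.46 against 8.87 and 7.37 (2.02, adjusted p = 0.00331). These 3 genes had means of 0.0157 to 0.192 CPM in untreated cells and were above both WT control libraries in both KO Poly(I:C) libraries. Megf9 was lower (12.8 and 12.4 against 4.08 and 4.51, -1.54, adjusted p = 7.98e-05) and was also lower in untreated KO cells (14.0 against 19.8, means, unadjusted p = 0.00127). In KO control, however, Megf9 was at 15.1 and 14.6, above both WT control libraries. Draxin (-1.71), Ptpru (-1.72) and Gfi1 (-1.52) were lower as well, from 4.48 to 7.58 CPM in WT control, and all 3 were above untreated in both states. Draxin lost its call without WT control replicate 1 (-1.34), Gfi1 without that library (-1.53) or KO Poly(I:C) replicate 2 (-1.4), and Ptpru without any single library (-1.86 to -1.58). Plpp1, a lipid phosphatase, was at 23.7 and 17.8 against 8.25 and 6.96 (-1.43, adjusted p = 0.00236). The small nuclear RNA gene Rn7sk varied widely within groups, at 3.13 and 0.358 against 17.2 and 4.18, and its call (2.82) was lost without KO Poly(I:C) replicate 1 (1.81) or WT control replicate 2 (1.41).

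A last set of values concerns differences between the labels without stimulus. In untreated cells KO and WT differed for 22 of 13171 genes (0.167%), 11 in each direction (0.0835%), with 1146 (8.70%) at an unadjusted p under 0.05. Of the 22 genes, 11 were also called in the direct comparison in the same direction, which is 0.352% of its calls, and 4 (Cmpk2, Ccl12, Phf11b and Pdpn) in the opposite one. By the wider mark, an unadjusted p under 0.05 in untreated cells in the same direction, 185 direct calls (5.91%) were marked and 193 had the opposite sign. These groups of libraries are separate from those of the direct comparison. The Tlr4 gene lies on chromosome 4. Of 53 tested genes within 10 Mb of it, 24 were called in the direct comparison (45.3%) and 3 in untreated cells (5.66%), against 23.6% and 0.146% on the other chromosomes.

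Of the 11 marked genes, 2 were lower and 9 higher in KO cells in both the direct and the untreated comparison. Wdfy1, whose product has been linked to TLR3 and TLR4 signalling, lies at chr1:79702262-79776143 and was at 94.1 and 100 CPM in WT control and 37.1 and 35.3 in KO Poly(I:C) (-1.42, adjusted p = 0.000121). In untreated cells it was at 46.9 and 53.3 in WT and 9.16 and 11.5 in KO (-2.27), so it was lower under the KO label with and without stimulus. Rab4a, an endosomal GTPase on chromosome 8, was lower in both comparisons (3.83 and 4.66 against 1.59 and 1.68, and 12.4 and 12.8 against 6.12 and 6.52 untreated). In KO control, however, Rab4a was at 6.74 and 5.68, above both WT control libraries. Akap2, a kinase anchor at chr4:57717657-57896984 and 9.11 Mb from Tlr4, was at 3.22 and 4.42 in WT control against 41.9 and 47.4 in KO Poly(I:C) (3.53, adjusted p = 1.18e-05), and 0.595 and 0.662 against 5.82 and 7.36 untreated. In KO control, however, Akap2 was at 2.21 and 2.17, below both WT control libraries. Ptprd, also 9.11 Mb away, was at 0.0839 and 0 against 4.08 and 3.41, and Gng10, 7.79 Mb away, at 19.0 and 20.7 against 30.3 and 29.4 (0.59). These 3 genes account for the untreated calls near Tlr4.

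The other marked genes lie elsewhere. Lrmda (chr14:22019712-23056085) was at 0.475 and 0.448 CPM in WT control against 16.9 and 15.5 in KO Poly(I:C), with 0.626 and 0.629 against 10.1 and 9.86 in untreated cells. Acad10, an acyl-CoA dehydrogenase on chromosome 5, was at 0.224 and 0.269 against 3.55 and 3.02, and 1.16 and 1.16 against 6.25 and 6.84. In both genes the KO libraries were above the WT ones in every condition, and the response test called Lrmda (1.07, adjusted p = 0.0109) but not Acad10 (adjusted p = 0.0549). Gm16867 and Gm27177 on chromosome 14 and the pseudogene Mid1-ps1 on chromosome Y were at 0 to 0.0299 CPM in WT control and at 18.6 to 28.2 in KO Poly(I:C), with 1.88 to 7.52 in untreated KO cells. Against libraries at or near 0 no fold is given, and pseudogenes and overlapping models may take reads of other genes. Rnf217 was at 6.15 and 5.82 against 8.75 and 8.88 (0.55) and did not pass with totals alone. Of the genes named in the earlier paragraphs, Cd86, Cd83, C1qa, Dusp4, Hmox1, Mcat, Megf9 and Gfi1 carried the wider mark.

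**Figure D5:**
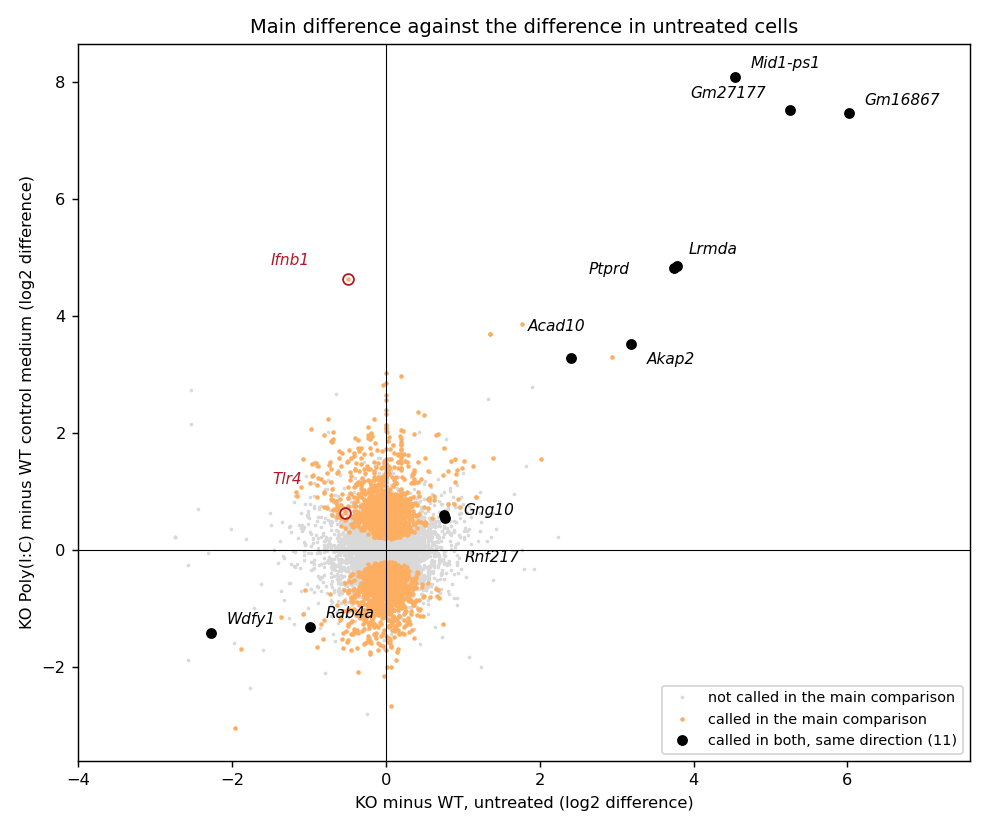
Log2 difference in the direct comparison, KO Poly(I:C) minus WT control (y axis), against the difference between the labels in untreated cells (x axis). Orange points were called in the direct comparison, and the 11 labelled black points were called in both in the same direction, with 9 higher and 2 lower. Ifnb1 and Tlr4 are circled, each with a negative untreated difference (-0.50 and -0.53). Heights of genes at or near 0 in WT cells depend on the added 0.1.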

How the data were processed

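Messenger RNA was sequenced from a stranded library kit, per the labels' protocols. Per the submitters' processing notes, the tools included STAR (2.4.0d), RSEM (1.2.12), DESeq2 and Trim Galore (0.2.8), whose roles are not described. The sources used here name no build. The deposited table of values per gene holds a signal, not raw counts: its whole numbers skip values in some libraries, as reads multiplied by a factor for each library and rounded would. The authors' rlog table, in log2 units and as deposited, served as a check. Of 45318 identifiers 44585 matched a symbol in GENCODE M21.

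Genes that reached 10 in 2 or more libraries (13171 of 20687 above 0) were scaled by TMM, trimming 30% of M and 5% of A values, and tested as log2(CPM + 0.1) with limma 3.58.1 in R 4.3.3, with trend, over 5 groups (5 residual and 4.82 prior degrees of freedom) and Benjamini-Hochberg adjustment. Tests were checked on simulated data. Members, the 34 gene lists and the rule for the 172 genes named by it (fixed genes, the 12 largest differences a direction, up to 4 called and 2 alike members a list, marked genes, the 8 largest shared responses) were chosen with earlier results of these data known, and other list members named in the text were chosen with their values known. Alternatives changed the pseudocount, filter, scaling, table, groups fitted, replicate block and libraries.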

Additional observations from a re-analysis of the deposited data

How the results depend on the processing

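Against 3128 calls in the direct comparison, leaving out 1 library gave 1241 to 2452, totals alone 5001 (15.3% of them higher, against 49.9%), values as deposited 1576 higher and 1200 lower, and the median of ratios 1811 and 1285. The test of response differences (1281) gave 2467 with totals alone and 428 to 1140 without 1 library. The untreated comparison (22) gave 14 with no filter, 2 with only these groups and 11 to 69 without 1 library, and genes marked in the same direction (11) were 2 with only these groups and 9 to 11 without 1 library. The count of genes with an interval within 1 log2 (10172) was 15648 with no filter, which tests more genes, and 9004 to 9555 without 1 library. Calls in all lists (330) were 174 to 315 without 1 library. Antiviral genes called higher (45) were 20 to 40, interferon-inducible GTPases (23) 13 to 20, and cholesterol genes called lower (13) 5 to 15 without 1 library. With totals alone cholesterol genes called lower were 20 and glycolysis and hypoxia genes 24. The causes of these shifts were not tested.

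Replicate numbers are shared across groups, with nothing in the labels to say what they pair. Deviations of same-numbered libraries correlated at 0.171 to 0.315 between groups of the same genotype label. Between groups of different labels r was 0.013 to 0.111. The main fits took no account of replicate number. With the replicate block the direct comparison gave 3900 calls, the untreated one 99, the response test 1929 and the genes marked in the same direction 24. The planned edgeR test on recovered reads was not run, because rounding kept whole reads from being recovered. The values carry no original depth, so counting error could not be given.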
